A study of Homo sapiens with 4 samples.

Results

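The expression of 34 target genes of the transcription factor p53 was followed in subpopulations of HCT116 cells with and without 5-azacytidine. The genes were taken as a list of well-known p53 targets and were found on the arrays by the RefSeq accession of each probe. All 34 were matched, by 49 probes. After a filter on dim probes, 32 of them were retained with 46 probes, among 18919 retained genes in all. The other two, ZMAT3 and SPATA18, had 1 probe each that no array measured well above background, and have no ratio here. The retained genes fall into 5 groups by role: 6 of 7 genes of cell cycle arrest, all 14 of apoptosis, all 3 of feedback on p53, 5 of 6 of metabolism, and all 4 of DNA repair.

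HCT116 is a line of human colorectal carcinoma cells with a functional p53 pathway. The MG cells are HCT116 cells collected after they had repeatedly migrated through the membrane of a chamber, and the non-MG cells are those that stayed behind, so both are selected populations of 1 line and not clones. The 4 groups were non-MG cells with control treatment, non-MG cells with 5-azacytidine, MG cells with control treatment, and MG cells with 5-azacytidine, the drug being given at 5 µM for 48 h. 5-azacytidine is a cytidine analogue that is built into nucleic acids and traps DNA methyltransferases, so that methylation is lost as cells divide. RNA was labelled and hybridized to one-colour arrays, with 1 array per condition. There were no replicates, so no test between conditions was possible, and counts are read against the same counts over all retained genes.

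p53 is held at a low level in unstressed cells by MDM2, an E3 ligase that marks it for degradation, and by MDM4, which masks its activation domain. DNA damage and other stresses release it from both. It then binds response elements near its target genes and induces arrest of the cell cycle, repair, death of the cell and, through MDM2 and PPM1D, its own shutdown. In colorectal cells the pathway is one of the main barriers to tumour growth, and HCT116 is widely used to study it because the pathway is intact.

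Since p53 reaches its targets through DNA, the promoters were searched for the p53 response element, which consists of 2 half-sites of 10 bases. The RefSeq table of promoter windows, from 250 bases before to 50 bases after a transcription start on GRCh38.p14, held 27 of the 34 genes in 43 windows. GADD45A, TNFRSF10A, TNFRSF10B, TNFRSF10C, TP53INP1, PHLDA3 and RRM2B had no window among those searched. An element could have up to 3 mismatches and at most 1 base between the half-sites, with the C and G of both cores intact. Such an element was present for 8 of the 27 genes (29.6%), compared with 2.91% of all 27305 symbols searched. The consensus reads the same on both strands, so a search along the strand of the gene covers both. With up to 2 mismatches there were 4 genes (14.8%), compared with 0.674% of all symbols. The 4 are shown first, followed by GDF15, which is described in full for its use as a marker of p53 activity. Elements are in capitals with flanking bases in lower case, in the direction of the gene.
DDB2: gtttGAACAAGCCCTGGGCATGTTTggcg
MDM2: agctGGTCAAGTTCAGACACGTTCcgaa
FAS: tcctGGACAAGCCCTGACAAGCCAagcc
AEN: agccGGGCTTGCCCGGGCATGTGGgagc
GDF15: gcacAGCCATGCCCGGGCAAGAACtc

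The element of DDB2 lies at chr11:47214979-47214999, just after the start, and has 0 mismatches with 1 base between its half-sites. Only 7 of the 35116 windows searched held such an exact element. The elements of MDM2 (chr12:68808923-68808942), FAS (chr10:88991309-88991328) and AEN (chr15:88621306-88621325) lie before the start on the plus strand, each with 2 mismatches. That of GDF15 (chr19:18386186-18386205, plus strand) has 3 mismatches, as have those of FDXR, SESN1 and PMAIP1. CpG is the sequence that DNA methyltransferases act on. The windows of the target genes had a median of 25 CpG (range 0 to 45), compared with 14 over all windows searched. Those include windows of genes not retained on these arrays, and retained genes were not counted apart. Whether the difference is particular to p53 targets was therefore not tested. A match of letters is a description only, and neither p53 binding nor methylation was measured on these arrays.

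Most of the p53 target genes had their highest level in MG cells with 5-azacytidine. Levels are log2 intensities relative to the 75th percentile of each array, so that 0 is the level of the probe at that percentile. Of the 32 retained genes, 22 were highest on the array of MG cells with 5-azacytidine, which was the highest of the 4 for 26.2% of all retained genes. Another 4 (PLK3, GDF15, DDB2 and RRM2B) were highest in non-MG cells with 5-azacytidine, compared with 18.9% of all genes. Only FBXW7 and POLH were highest in MG cells with control treatment (22.9% of all genes), and GADD45A, BBC3, TP53I11 and CCNG1 were highest in non-MG cells with control treatment (31.9%). The shifts behind these ranks were small for most genes.

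**Figure D1:**
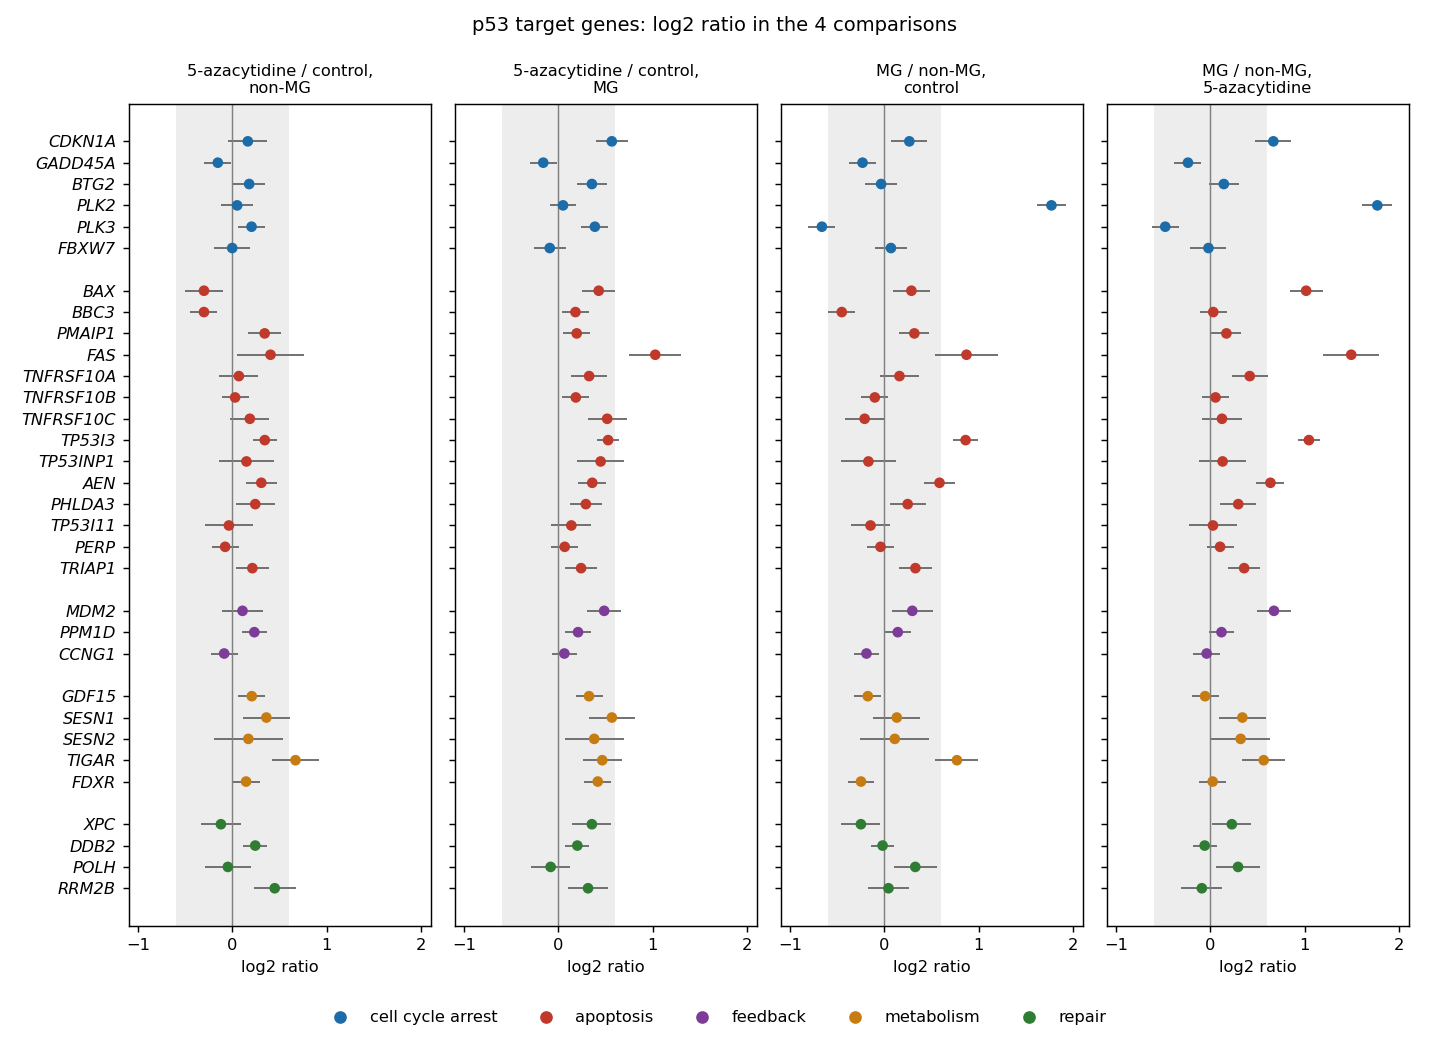
Log2 ratios of the 32 retained p53 target genes in the 4 comparisons, grouped by role, with 5-azacytidine over control in each subpopulation and MG over non-MG cells under each treatment. Bars span 2 spot errors to either side, the grey band is 1.5-fold, and each condition has 1 array. PLK2 stands out at 1.77 in both comparisons of the subpopulations, FAS at 1.03 in the drug response of MG cells, and PLK3 is the only gene lower past 1.5-fold.

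With 5-azacytidine, the p53 target genes were mostly higher by small amounts, and more of them in MG than in non-MG cells. In MG cells 29 of 32 genes had a log2 ratio above 0, compared with 46.7% of all retained genes, and their median was 0.32, compared with −0.02 over all genes. In non-MG cells 23 of 32 were above 0, compared with 43.9% of all genes, with a median of 0.17 against −0.04. In both subpopulations 23 genes were above 0, compared with 26.6% of all genes, and GADD45A, FBXW7 and POLH were below 0 in both. Few of these shifts were large. Past 1.5-fold (0.58 on the log2 scale), only FAS was higher in MG cells and only TIGAR in non-MG cells, 1 gene of 32 in each, compared with 7.62% and 6.01% of all genes, and 0 genes were lower, compared with 6.37% and 4.58%. At that threshold the list therefore did not exceed the background of all genes, and its shift shows in the number of genes above 0.

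The error of a single spot, taken from probes that are spotted repeatedly on each array, put the ratios of the members at between 0.06 and 0.18, which covers spotting and scanning but not cultures or labelling. In MG cells 25 of 32 drug responses lay above 0 by more than 2 spot errors, compared with 16% of all retained genes, and 1 lay below, compared with 18%. In non-MG cells 15 lay above, compared with 11.6%, and 3 below, compared with 18.2%. Over genes with every retained probe well above background, the shares above and below were 14.5% and 17.9% in MG cells and 10.5% and 20% in non-MG cells. The remaining 6 and 14 genes were within 2 spot errors of 0.

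**Figure D2:**
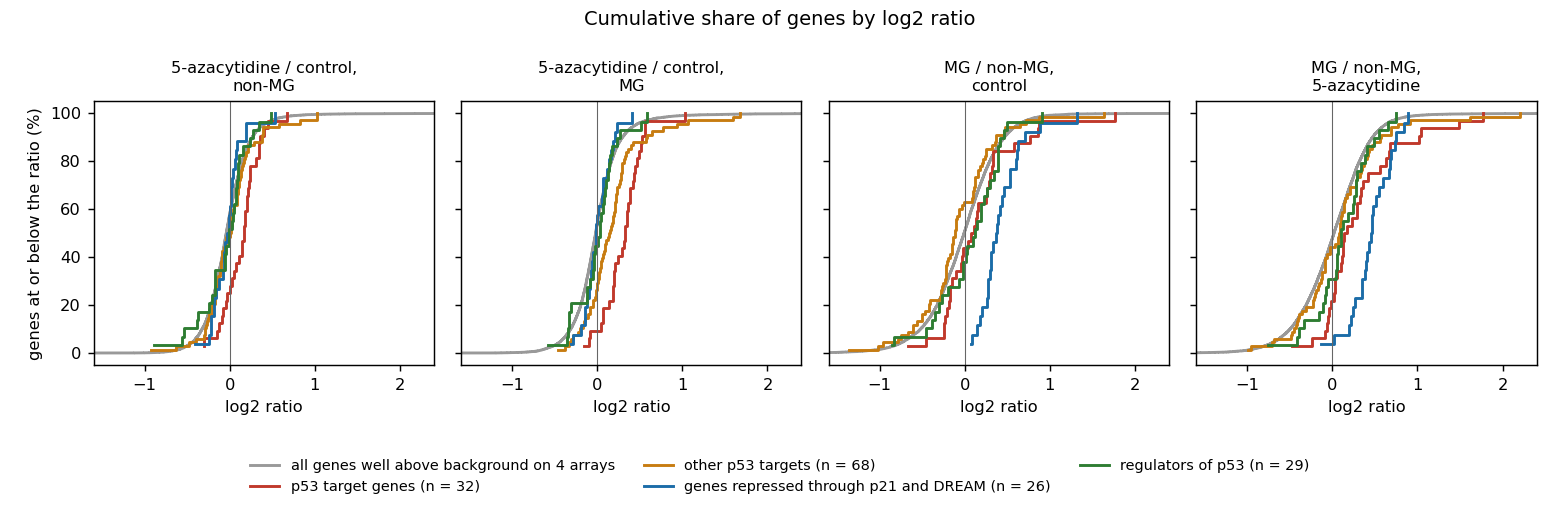
Cumulative share of genes (percent, vertical) by log2 ratio (horizontal) in the 4 comparisons, for the 32 retained p53 target genes, 68 other p53 targets, 26 genes repressed through p21 and DREAM, 29 regulators of p53, and all genes measured well above background on every array in grey. The curve of the p53 target genes lies to the right of the grey curve in the drug response of MG cells, with a median of 0.32, and that of the genes repressed through p21 lies to the right in both comparisons of the subpopulations, with medians of 0.37 and 0.46.

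Of the genes of cell cycle arrest, CDKN1A encodes p21, the inhibitor of cyclin-dependent kinases through which p53 stops cells in G1. Its level was 1.28 in non-MG cells with control treatment, 1.44 in non-MG cells with 5-azacytidine, 1.55 in MG cells with control treatment and 2.11 in MG cells with 5-azacytidine. The treated MG cells thus stood above the other three conditions, which lay close together. With the drug CDKN1A was 1.48-fold higher in MG cells (log2 ratio 0.57, spot error 0.09) and 1.12-fold higher in non-MG cells (0.16, spot error 0.10), neither past 1.5-fold. Between the treated subpopulations it was 1.59-fold higher in MG cells. BTG2, an antiproliferative gene, had drug responses of 0.35 in MG and 0.18 in non-MG cells. GADD45A, a stress sensor that binds PCNA and p21, differed from most of the list, with −0.16 in both subpopulations. FBXW7, the substrate receptor of a ubiquitin ligase for cyclin E and MYC, was near 0 in both, at −0.09 and −0.00.

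The polo-like kinases PLK2 and PLK3, both stress-responsive kinases of the cell cycle, differed between the subpopulations in opposite directions. PLK2 had a level of 1.98 in non-MG cells and 2.03 in non-MG cells with the drug, compared with 3.75 in MG cells and 3.80 in MG cells with the drug. The drug made a difference of only 0.05 in each subpopulation. PLK2 was 3.41-fold higher in MG cells under either treatment (log2 ratio 1.77, spot error 0.08), the highest ratio of the list. PLK3 had levels of 4.49 and 4.69 in non-MG cells without and with the drug, and of 3.82 and 4.21 in MG cells. It was 1.58-fold lower in MG cells with control treatment (−0.66, spot error 0.07), while its difference of −0.48 with the drug did not pass 1.5-fold.

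In the drug response of MG cells all 14 genes of apoptosis were above 0, compared with 46.7% of all genes. Their median was 0.31. In non-MG cells 10 of 14 were above 0, compared with 43.9% of all genes, with a median of 0.17. FAS, the death receptor for FAS ligand, had the largest drug response of the list in MG cells. Its first probe had levels of −0.40 in non-MG cells, −0.40 in non-MG cells with the drug, 0.34 in MG cells and 0.77 in MG cells with the drug. The second probe gave −0.88, −0.51, −0.08 and 1.22 in the same order. Both probes were lowest in non-MG cells and highest in treated MG cells. The third probe was dim and was well above background only in MG cells with the drug, where it was at least 2.07-fold higher than in MG cells with control treatment and at least 1.82-fold higher than in treated non-MG cells.

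Averaged over the 3 probes, FAS was 2.04-fold higher with the drug in MG cells (1.03, spot error 0.14) and 1.32-fold higher in non-MG cells (0.40, spot error 0.18). It was 1.83-fold higher in MG than in non-MG cells with control treatment and 2.81-fold higher with the drug. With the dim probe left out, the log2 ratios of FAS were 0.86 for the drug in MG cells, 0.19 for the drug in non-MG cells, 0.77 between the subpopulations with control treatment and 1.45 with the drug. The other death receptors were shifted less. TNFRSF10A and TNFRSF10B encode receptors for TRAIL, and TNFRSF10C encodes a decoy receptor without a death domain. Their drug responses were 0.33, 0.18 and 0.52 in MG cells, compared with 0.07, 0.03 and 0.18 in non-MG cells.

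BAX, BBC3 and PMAIP1 act at the mitochondrion, BAX as the protein that opens its outer membrane, and PUMA (from BBC3) and NOXA (from PMAIP1) as BH3-only proteins that release it. BAX had 2 probes, which match different transcripts. The first had levels of 4.25 in non-MG cells, 3.65 in non-MG cells with the drug, 4.79 in MG cells and 4.98 in MG cells with the drug. The second stood at −0.92, −0.92, −0.89 and −0.22. Both were highest in treated MG cells, but they split elsewhere, as only the first probe was lower with the drug in non-MG cells (−0.60, compared with −0.01). The mean of both was 1.34-fold higher with the drug in MG cells and 1.23-fold lower in non-MG cells, and between the treated subpopulations BAX was 2.02-fold higher in MG cells (1.01, spot error 0.09).

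BBC3 stood at 4.50 in non-MG cells, 4.20 in non-MG cells with the drug, 4.05 in MG cells and 4.23 in MG cells with the drug, so that untreated non-MG cells were highest. PMAIP1 was the lowest in untreated non-MG cells, with 3.09, and stood between 3.41 and 3.60 on the other three arrays. BAX, BBC3 and PMAIP1 therefore did not share 1 order of the 4 arrays.

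TP53I3, also called PIG3, encodes a quinone oxidoreductase linked to oxidative stress, and AEN encodes an exonuclease that degrades DNA in dying cells. The probes of each agreed closely. TP53I3 had levels of 1.48, 1.80, 2.29 and 2.84 by one probe and 2.16, 2.52, 3.07 and 3.58 by the other, in the order of non-MG cells, treated non-MG cells, MG cells and treated MG cells. AEN had levels of 0.75, 1.03, 1.32 and 1.64 by one probe and −0.23, 0.11, 0.37 and 0.76 by the other. Both genes thus had the same order of conditions, with MG cells above non-MG cells and treated above untreated cells of the same kind. TP53I3 was 1.82-fold higher in MG than in non-MG cells with control treatment and 2.06-fold higher with the drug. AEN had a ratio of 0.58 with control treatment, just under the threshold, and was 1.55-fold higher with the drug. Their drug responses lay between 0.31 and 0.53.

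The drug responses of the remaining genes of apoptosis in MG cells were 0.45 for TP53INP1, which promotes autophagy and p53 activity, 0.29 for PHLDA3, an inhibitor of AKT, and 0.24 for TRIAP1, which restrains apoptosis. They were 0.14 for TP53I11 and 0.07 for PERP, a protein of desmosomes, both within 2 spot errors of 0. For TP53INP1 the brighter of its 2 probes gave 0.16 and the dimmer 0.73. The levels of PERP lay between 5.82 and 5.92 on all 4 arrays and hardly differed between conditions.

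**Figure D3:**
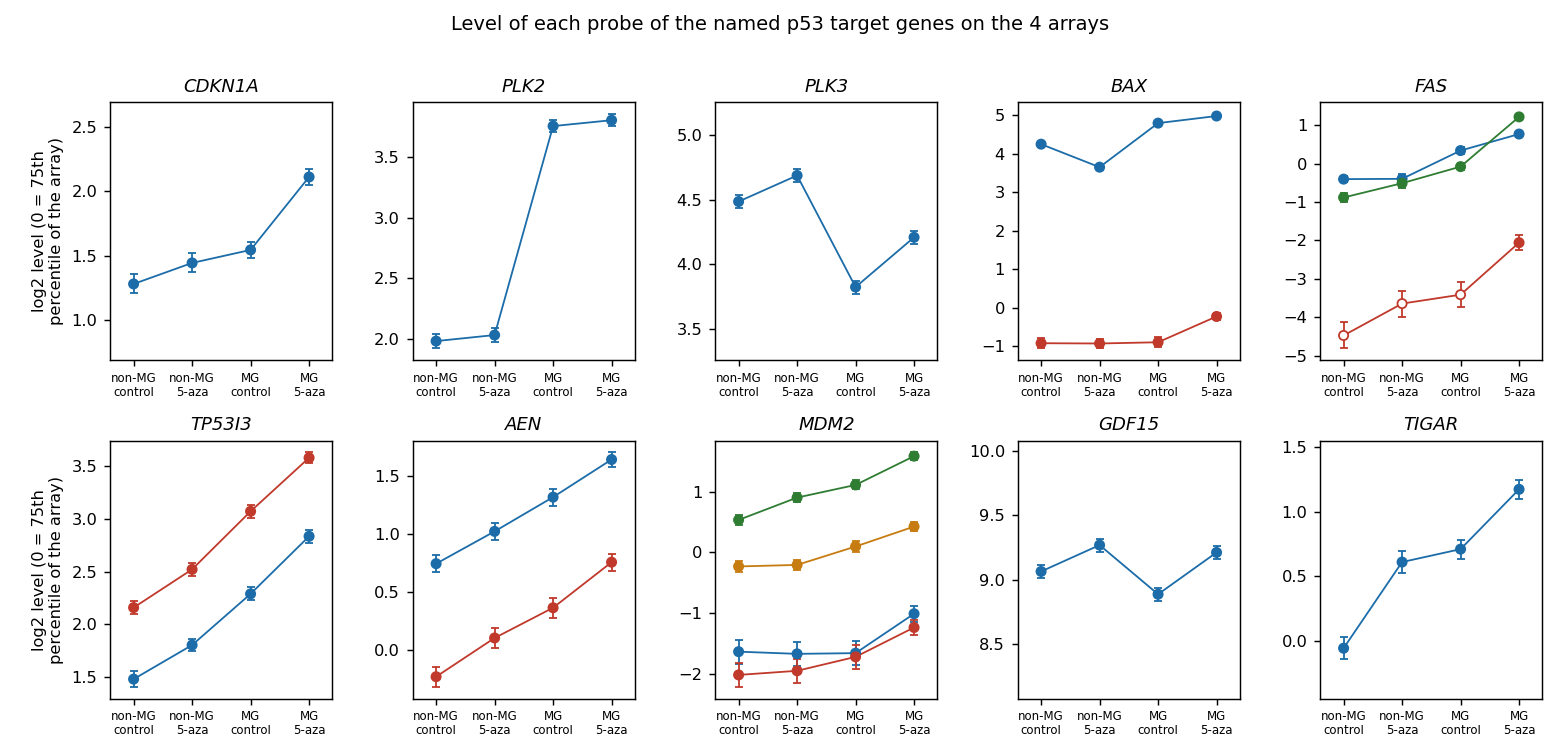
Level of each retained probe on the 4 arrays for the p53 target genes described in full, as log2 intensity relative to the 75th percentile of the array. Error bars are the spot error, open points were not well above background, and lines join the 4 values of 1 probe and are no time course. The probes of TP53I3 and AEN run in parallel, those of BAX part in non-MG cells with 5-azacytidine, and PLK2 steps up between non-MG cells (1.98 and 2.03) and MG cells (3.75 and 3.80).

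The feedback genes limit p53 itself. MDM2 had 4 probes, and each was higher with the drug in MG cells, by 0.33 to 0.65 on the log2 scale. In non-MG cells the same probes ranged from −0.04 to 0.37. The mean level was −0.84 in non-MG cells, −0.73 in non-MG cells with the drug, −0.54 in MG cells and −0.06 in MG cells with the drug. By this mean, treated MG cells again stood apart from the other conditions. Each probe was highest there, but the brightest rose in steps, with levels of 0.54, 0.90, 1.11 and 1.59 in the same order. MDM2 was 1.40-fold higher with the drug in MG cells and 1.08-fold higher in non-MG cells, and it was 1.59-fold higher in MG than in non-MG cells when both were treated (0.67, spot error 0.09). PPM1D, the phosphatase WIP1 that reverses damage signalling, had nearly equal mean drug responses of 0.21 in MG and 0.23 in non-MG cells. Its 2 probes gave 0.05 and 0.41 in non-MG cells. CCNG1, the cyclin G1 that works with a phosphatase on MDM2, had mean responses within 0.09 of 0 in both. Its 2 probes differed in sign, with 0.11 and −0.28 in non-MG cells and 0.15 and −0.03 in MG cells.

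All 5 retained genes of metabolism were above 0 in both drug responses, compared with 26.6% of all genes. Their medians were 0.42 in MG and 0.20 in non-MG cells. TIGAR, a fructose bisphosphatase that slows glycolysis, had levels of −0.06 in non-MG cells, 0.61 in non-MG cells with the drug, 0.71 in MG cells and 1.17 in MG cells with the drug. Untreated non-MG cells were lowest, and the drug left non-MG cells near the level of untreated MG cells. TIGAR was 1.59-fold higher with the drug in non-MG cells (0.67, spot error 0.12) and 1.38-fold higher in MG cells. It was 1.70-fold higher in MG than in non-MG cells with control treatment, and 1.48-fold higher when both were treated.

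SESN1 and SESN2 encode sestrins, which restrain mTORC1 signalling under stress. SESN1 had drug responses of 0.57 in MG and 0.36 in non-MG cells, and SESN2 of 0.38 and 0.17. FDXR, the mitochondrial ferredoxin reductase, had 0.42 and 0.14. GDF15, a secreted stress cytokine, had levels of 9.06 in non-MG cells, 9.27 in non-MG cells with the drug, 8.89 in MG cells and 9.21 in MG cells with the drug. The drug response of GDF15 was 1.25-fold in MG and 1.15-fold in non-MG cells.

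Of the 4 genes of repair, 3 were above 0 in the drug response of MG cells, compared with 46.7% of all genes. In that of non-MG cells 2 were above 0, compared with 43.9%. DDB2, which recognises DNA lesions in nucleotide excision repair and whose window held the exact element, had drug responses of 0.20 in MG and 0.24 in non-MG cells, and differed between the subpopulations by no more than 0.06 under either treatment. XPC, which acts with it in the recognition of lesions, was at 1.05 in non-MG cells, 0.92 in non-MG cells with the drug, 0.80 in MG cells and 1.15 in MG cells with the drug. RRM2B, the p53-inducible subunit of ribonucleotide reductase, had 0.31 in MG and 0.45 in non-MG cells. POLH, the DNA polymerase that copies past ultraviolet lesions, was slightly below 0 in both, at −0.08 and −0.05.

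**Figure D4:**
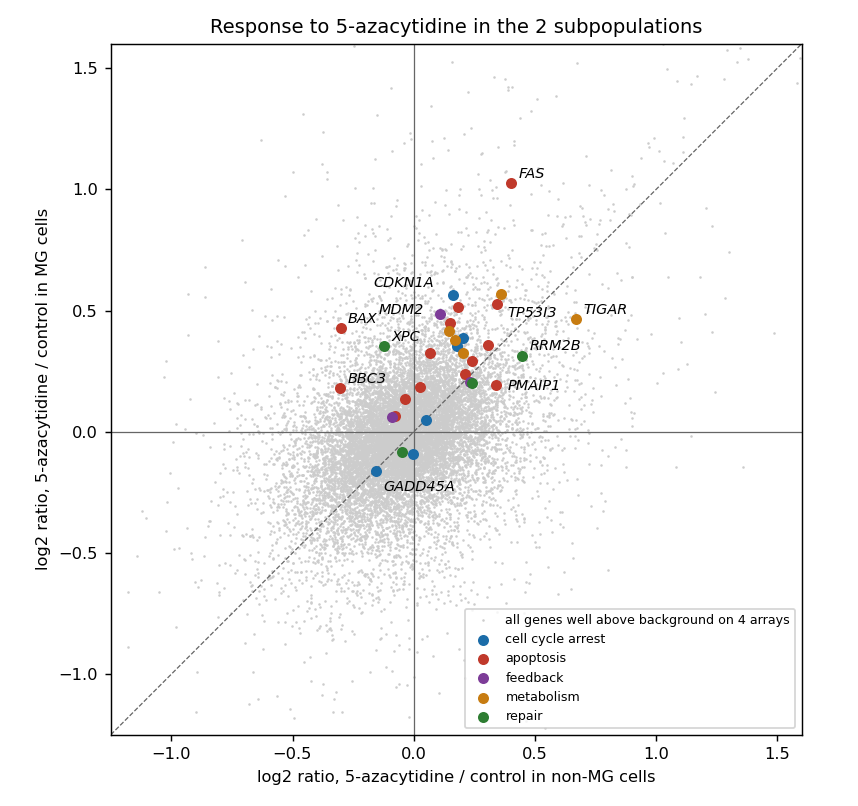
Log2 ratio of 5-azacytidine over control in non-MG cells (horizontal) and MG cells (vertical) for the 32 retained p53 target genes, coloured by role, with all genes measured well above background on every array in grey. Of the 32 genes, 23 lie above the diagonal, where the response is larger in MG cells, and BAX, BBC3, XPC and, nearer to 0, TP53I11, PERP and CCNG1 lie in the quadrant that is below 0 in non-MG and above 0 in MG cells.

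The drug response was larger in MG than in non-MG cells for 23 of 32 p53 target genes, compared with 52.8% of all retained genes. The median difference between both responses was 0.17 on the log2 scale, compared with 0.02 over all genes. It was 0.73 for BAX, 0.62 for FAS, 0.48 for BBC3 and XPC, 0.40 for CDKN1A and 0.38 for MDM2. The responses were closest for PLK2, GADD45A and PPM1D, which differed by no more than 0.02. Across the 32 genes the responses of both subpopulations, which share no array, had a Pearson correlation of 0.51, compared with 0.35 across all retained genes and 0.46 across the 15017 genes whose retained probes all stood well above background throughout. Genes measured on the same arrays are not independent, and the correlations are given as descriptions.

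Between the subpopulations, the median of the list was shifted little without the drug, while single genes differed in both directions. By more than 2 spot errors, 13 of 32 genes lay above 0 and 8 below with control treatment. The same shares over all genes were not counted for this comparison. With control treatment 18 of 32 genes were higher in MG cells, compared with 47.1% of all genes, and the median ratio was 0.09. Past 1.5-fold, PLK2, FAS, TP53I3 and TIGAR were higher, 4 of 32, compared with 8.24% of all genes, and PLK3 was lower, 1 of 32, compared with 12.6%. With the drug 25 of 32 genes were higher in MG cells, compared with 49.5% of all genes, with a median of 0.16. CDKN1A, PLK2, BAX, FAS, TP53I3, AEN and MDM2 passed 1.5-fold, 7 of 32, compared with 8.6% of all genes, and 0 genes were lower, compared with 12.3%. All 14 genes of apoptosis were above 0 in treated MG over treated non-MG cells, and 8 of 14 were above 0 in the untreated pair. PLK2, FAS and TP53I3 passed 1.5-fold upwards under both treatments, 3 of 32, compared with 3.4% of all genes. Above 0 under both were 16 of 32, compared with 36% of all genes. Below 0 under both were 5 of 32, for which the share of all genes was not counted. The ratios under both treatments had a Pearson correlation of 0.89 across the 32 genes, and of 0.81 without PLK2 and FAS. It was 0.41 across all retained genes and 0.72 across the genes well above background throughout, and is likewise a description.

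Since all but FAS had every retained probe well above background on all 4 arrays, the list was also set against the 15017 genes for which this held. Of those, 2.95% were higher past 1.5-fold with the drug in MG cells, 1.85% in non-MG cells, 5.67% in MG over non-MG cells with control treatment and 5.73% with the drug. The shares above 0 were 46%, 42%, 49.1% and 52.1%. These shares above 0 lie close to those over all retained genes, while fewer bright genes passed 1.5-fold. The drug response was larger in MG cells for 53.8% of them. Some single calls ended with the background correction. With normexp, CDKN1A, AEN, MDM2, PLK3 and TIGAR no longer passed 1.5-fold in the comparisons named above, and FAS passed it only between the treated subpopulations. With a floor at the detection limit, the ratio of FAS between the untreated subpopulations was 0.52 and did not pass, and with the brightest probe alone its drug response in MG cells did not pass.

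Among the genes that control p53, MDM4 was lower with the drug by all 4 of its probes in both subpopulations, with mean ratios of −0.35 in MG and −0.21 in non-MG cells. Its mean level was lowest in treated MG cells, at 1.24, compared with 1.58 in treated non-MG cells and in untreated MG cells and 1.78 in untreated non-MG cells. MDM2 and MDM4, which act together on p53, thus had mean drug responses of opposite sign in MG cells (0.48 and −0.35). In non-MG cells the mean response of MDM2 (0.11) did not exceed its spot error (0.11). Over 29 of 30 listed regulators of p53 that were retained, 0 were higher and 0 were lower past 1.5-fold with the drug in MG cells, and 0 were higher and 1 lower in non-MG cells. Over all retained genes 7.62% were higher and 6.37% lower in MG cells, and 6.01% were higher and 4.58% lower in non-MG cells. The 1 was EP300, an acetyltransferase of p53, named after its value was seen, whose probe was well above background on only 1 array, so that no ratio is given. The median drug responses of the regulators were 0.03 in MG and −0.00 in non-MG cells.

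A second list of 74 further p53 targets, of which 68 were retained, was shifted less than the 34 genes. With the drug in MG cells 49 of 68 were above 0, compared with 46.7% of all genes, with a median of 0.14, and 6 were higher and 0 lower past 1.5-fold, compared with 7.62% and 6.37%. In non-MG cells 35 of 68 were above 0, compared with 43.9%, with a median of 0.01, and 3 were higher and 2 lower, compared with 6.01% and 4.58%. The number higher past 1.5-fold was thus near that over all genes. The 2 lower were TLR3 (−0.93) and DDIT4 (−0.64), named after their values were seen. Of this list NUPR1, IGFBP3 and NECTIN4 were higher past 1.5-fold with the drug in both subpopulations, 3 of 68, compared with 2.88% of all genes, and well above background on all 4 arrays. NUPR1, a small stress-responsive regulator of transcription, had levels of −2.60 in non-MG cells, −1.57 in non-MG cells with the drug, −0.96 in MG cells and 0.64 in MG cells with the drug. IGFBP3, which binds insulin-like growth factors, stood at −2.02, −1.20, −1.37 and −0.43 in the same order. NECTIN4, a cell adhesion protein, stood at −1.59, −0.57, −2.34 and −0.66. NUPR1 and IGFBP3 were highest in treated MG cells, as most of the 34 genes were, whereas NECTIN4 was lower in MG than in non-MG cells without the drug (−0.75) and nearly level with it (−0.09).

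p53 also lowers the expression of many cell cycle genes indirectly, as p21 favours the assembly of the repressor complex DREAM on their promoters. Of 26 such genes, all retained, 0 were higher and 0 were lower past 1.5-fold with the drug in either subpopulation, where 7.62% and 6.37% of all genes were in MG cells and 6.01% and 4.58% in non-MG cells, and their median drug response was −0.02 in each. Between the subpopulations all 26 were higher in MG than in non-MG cells with control treatment, compared with 47.1% of all genes, with a median of 0.37, and 6 passed 1.5-fold, compared with 8.24%. With the drug 25 of 26 were higher in MG cells, compared with 49.5%, with a median of 0.46, and 8 passed 1.5-fold, compared with 8.6%. The genes repressed through p21 and CDKN1A itself were thus both higher in treated MG than in treated non-MG cells.

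On all 4 arrays between 21384 and 21882 of 50594 probes were well above background, no spot was saturated, and the 75th percentile of intensity ranged from 75.2 to 98.7. Of 8 epithelial markers 7 were well above background on every array, the exception being VIL1, which was on none. Of the markers of other cells, CD14, VWF, COL1A1, ACTA2 and DES were well above background on all 4, and PTPRC, CD3E, PECAM1 and COL1A2 on none. Over the 5 measured on all arrays, the log2 of the summed level was 2.27 in non-MG cells, 2.36 in non-MG cells with the drug, 1.79 in MG cells and 2.22 in MG cells with the drug, and untreated MG cells were lowest. Their part in the results was not tested. The arrays shared 1 slide, with the non-MG cells in 1 row and the MG cells in the next and the treatments in separate columns, so slide position and the 2 factors of the design cannot be told apart. In populations of cells, more RNA per cell and a larger share of cells expressing a gene also cannot be told apart.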

How the data were processed

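Total RNA (400 ng) of each condition was labelled with Cy3 and hybridized to an Agilent array by the study. The authors deposited the scanner output of Feature Extraction 11.5.1.1, in which spots carry an intensity corrected for background, and also their own log2 table, each probe centred on its median over the arrays. Ratios from that table differed from the present ones by a median offset of at most 0.004 in each comparison. With that offset removed, they were equal within 0.01 for 100% of 24161 probes. The build of the annotation used by the authors is not given in the sources used here, the array design is on an earlier build than GRCh38.p14, and so no coordinates of genes are given.

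Control spots and outlier spots were left out, the 75th percentile of each array was subtracted from its log2 intensities, and spots of a probe were averaged. Probes in the lowest 20th percentile on at least 2 arrays, or well above background on none, were left out. Probes were named by unversioned accession in RefSeq (79.4% of 23860 retained probes), and retained probes of a gene were averaged. Genes past 1.5-fold were counted, without a test. Where a probe was not well above background on the dimmer array, the fold is a bound, the brighter level over the higher of the lowest signal well above background and the probe's own signal. Spot error is the median SD between spots of probes spotted at least 8 times, at the same intensity. The number of arrays limits the precision. The counting was tested on simulated data with changes of 1.5 on the log2 scale in brighter genes and spot noise only. That test does not cover smaller shifts or dim probes.

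CDKN1A, MDM2, GDF15 and BAX, and every listed gene past 1.5-fold in any comparison with a probe well above background on both arrays, were to be given in full. MDM4 and up to 6 genes of each further list past 1.5-fold in both drug responses were added; some further items are not reported here. The other members are given by their values within their groups. The members and lists were chosen with earlier results of these data known. Alternatives were normexp (offset of 50, on the median spot intensity, since no mean spot intensity is in the files used), quantile normalization, median centring, no filter, a filter for signal well above background on every array, a floor at the detection limit, the brightest of a gene's probes, the authors' values and 2-fold. Python 3.11.15, numpy 2.4.6, pandas 2.3.3, matplotlib 3.10.9, R 4.3.3 and limma 3.58.1 were used.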

Additional observations from a re-analysis of the deposited data

Results flagged for a closer look

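For 3 of the p53 target genes, ratios of the same kind had opposite signs in the 2 settings, each beyond 2 spot errors. How many of all genes met this rule was not counted, so the number is no result about the list. The difference was not tested in any of them, since each rests on 1 array per condition. The drug response of BAX was −0.30 in non-MG cells and 0.43 in MG cells, a difference of 0.73 on the log2 scale, and the value in non-MG cells came from 1 of its 2 probes (−0.60, compared with −0.01 by the other). That of BBC3 was −0.30 in non-MG cells and 0.18 in MG cells, a difference of 0.48. The ratio of MG over non-MG cells for XPC was −0.25 with control treatment and 0.23 with 5-azacytidine, a difference of 0.48.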

How the results depend on the processing

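No ratio past 1.5-fold changed sign under any alternative, and of 320 recomputed ratios of named genes 251 moved by less than the spot error. Many of the 320 could hardly move. Ratios of named genes without the filter and from the authors' values were the same or nearly so. A gene with 1 probe has no other brightest probe. The count of 251 is therefore no measure of robustness. Below 1.5-fold, GDF15 in MG over non-MG cells with the drug went from −0.06 to 0.17 with normexp, 0.16 with quantile normalization and 0.20 with median centring, which also turned GDF15 with control treatment (−0.18 to 0.02) and the drug response of PLK2 in non-MG cells (0.05 to −0.05). Median centring moved the median of all genes to −0.13 and −0.06 in the drug responses of non-MG and MG cells and to 0.17 and 0.25 in MG over non-MG cells with control and with 5-azacytidine. Relative to the median of all genes, 29 or 30 of 32 p53 targets were above it in the drug response of MG cells under every alternative with a filter (26 of 34 without one), and between 21 and 26 of 32 in that of non-MG cells (21 of 34). The number higher in non-MG cells with the drug (1) became 0 with normexp, median centring or 2-fold and 2 with the brightest probe, which also gave 1 lower, and the median of 0.17 became 0.067 with median centring and 0.076 with normexp. Relative to all genes, the shift in non-MG cells stayed at 0.20 with median centring and became 0.085 with normexp. The number higher in MG cells with the drug (1) became 0 with normexp or the brightest probe, and the median of 0.32 became 0.21 with normexp. In MG over non-MG cells with control treatment, the 4 higher became 2 with normexp, 1 at 2-fold, 3 at the detection limit and 5 with quantile normalization, median centring or the authors' values, the 1 lower became 0 with normexp, median centring or 2-fold, and the median became 0.28 with median centring. With the drug, the 7 higher became 4 with normexp or 2-fold and 11 with median centring, quantile normalization gave 1 lower, and the median of 0.16 became 0.25 with normexp and 0.41 with median centring. The cause was not tested. PLK2, BAX, TP53I3 and, between treated cells, FAS kept their calls under all 8. The count of genes highest in treated MG cells, added after the values were seen, ranged from 22 to 27 of 32 (23 of 34 with no filter). The 1 array per condition limits the precision of every ratio. A block for the slide was not run, as there is 1 slide. No paired analysis was possible because each condition has 1 array.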
